A study of Sorghum bicolor with 15 samples.

Results

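The roots of the Striga-resistant sorghum variety SRN39 were compared between plants of 28 and 35 days, with 4 replicate libraries at each age, prepared from whole root systems. These 8 libraries are those labelled SRN39 among the 15 of the series, and the remaining 7 are from the susceptible variety Shanqui Red (SQR), with 4 at 28 days and 3 at 35 days. Of 34129 genes in the count table, 17187 had more than 1 CPM (a read count scaled to the size of its library) in at least 3 of the 8 SRN39 libraries and were tested. Every difference is given as 35 minus 28 days on the log2 scale, so that a value of 1 is a doubling with age. SRN39 carries a deletion at LOW GERMINATION STIMULANT 1 (LGS1) and exudes mainly orobanchol, and this background was common to both ages, as was growth on a nutrient solution low in phosphate. Plants were raised in sterilised soil and then in sand-filled cones at randomised positions in a greenhouse.

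Strigolactones are carotenoid-derived hormones that roots also release into soil, where they attract mycorrhizal fungi and trigger germination of parasitic Striga seeds. The carotenoid cleavage dioxygenases CCD7 and CCD8 act early in their synthesis, and the GRAS transcription factor NSP1 is required for expression of synthesis genes in legumes and rice. Auxin and abscisic acid shape root growth and stress responses. GH3 enzymes conjugate auxin to amino acids, SAUR genes are rapidly induced by auxin, and HAI3 belongs to the clade A protein phosphatases that restrain abscisic acid signalling in Arabidopsis.

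As a check of the labels, LGS1 (Sobic.005G213600), a sulfotransferase gene, ranged from 0.451 to 1.62 CPM over the 8 SRN39 libraries and from 18.9 to 81.8 CPM over the SQR libraries. SRN39 libraries held 10223535 to 12256529 counts at 28 days and 9618156 to 12969141 at 35 days, and 22122 to 23500 genes were detected in each. The 10 most abundant genes took 13.5% to 16.5% of counts at 28 days and 10.9% to 12.5% at 35 days, ranges that did not overlap. Age accounted for 55.7% of the variation in log2 CPM among the 8 libraries (exact permutation test, two-sided, p = 0.0286, the smallest that 70 assignments allow). On the line from the mean of the younger libraries (0) to that of the older ones (1), drawn for each library from the other 7, 28-day replicate 3 lay at 0.34 and the other 28-day libraries between -0.04 and 0.04. Without this library the age share was 63.1%, and 5762 genes were called in place of 5720. Each age had its own harvest, and the watering schedule lists its last nutrient solution on day 14 and its last water on day 17. Age, harvest day and time since feeding therefore cannot be told apart. In whole roots, fewer cells of a type and less RNA per cell cannot be told apart either.

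Between 28 and 35 days the SRN39 root transcriptome changed broadly and in both directions. At an edgeR adjusted p under 0.05, 5720 genes (33.3% of those tested) were called, of which 2888 (16.8%) were higher and 2832 (16.5%) lower in the older plants. The median log2 fold change was 0.99 among genes called higher and -0.95 among genes called lower, against 0.04 over all genes tested. Changes of more than 2-fold were measured for 1431 higher and 1312 lower genes, and changes of more than 8-fold for 43 and 22. The libraries of the 2 ages did not overlap for 6494 genes (37.8%) of all those tested and for 5050 of the called genes.

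The direction of the calls depended on expression level. Among the 871 genes with a mean over 200 CPM, 37.3% were called lower and 9.99% higher, whereas among the 6232 genes between 2 and 10 CPM 11.6% were lower and 18.0% higher. Genes called lower held 41.3% of SRN39 counts at 28 days and 24.9% at 35 days, and genes called higher rose from 6.80% to 15.5%. This imbalance moved with the scaling of libraries. Over 200 CPM, 325 genes were called lower and 87 higher with TMM, 214 and 164 with library totals, and 196 and 175 with quantile normalisation. Library totals moved the median of all genes to 0.31, and 74.8% of calls were then higher against 50.5% with TMM, so the balance between directions is relative to the scaling.

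**Figure D1:**
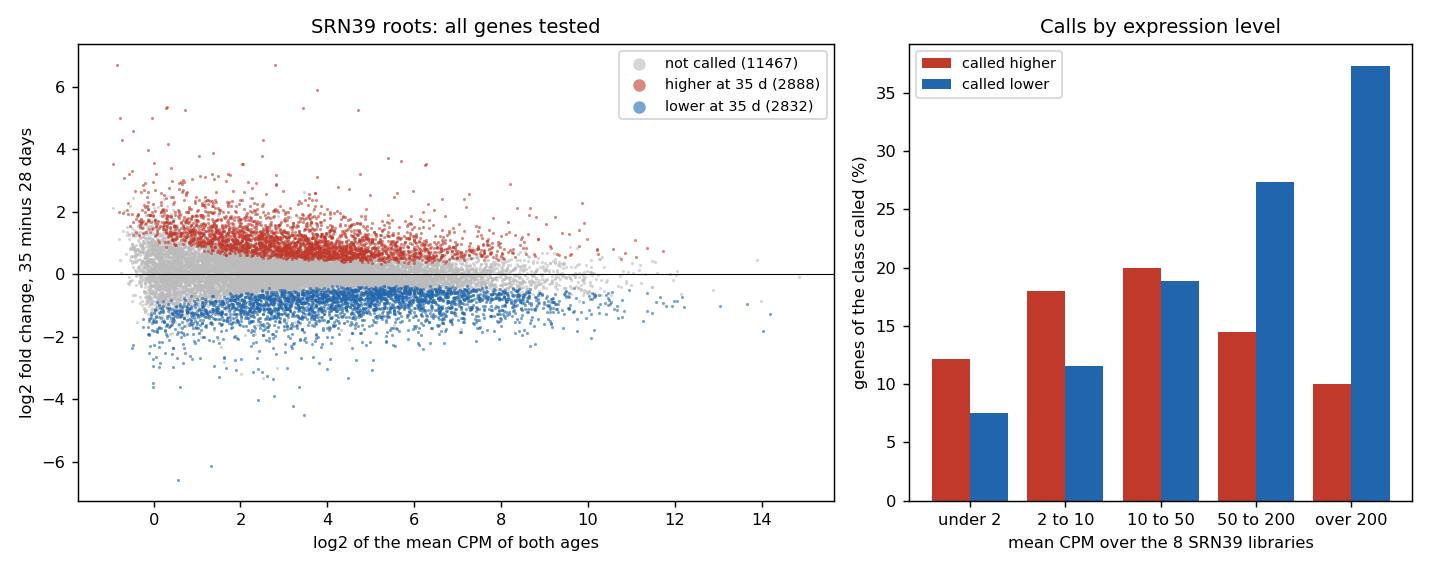
Left, log2 fold change between ages against log2 mean CPM for each gene tested in SRN39, with 2888 genes called higher in red and 2832 called lower in blue. Right, percent of genes called in each direction by mean CPM (bars); calls lower exceed calls higher above 50 CPM and fall below them under 10 CPM, with TMM scaling.

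Called genes were spread over the genome, from 29.2% of genes tested on chromosome 8 to 34.8% on chromosome 1. Chromosome 5 had the fewest lower calls in proportion, with 12.4% lower and 18.6% higher. Runs of 6 neighbouring tested genes called in the same direction were found at 2 places, Sobic.001G158500 to Sobic.001G159700 with a mean log2 fold change of 1.44, and Sobic.005G136200 to Sobic.005G137300 with 1.92. No longer run was seen.

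Functional descriptions were held for 413 genes, 402 on chromosome 1 and 11 on chromosome 2. The study chose these genes for a difference between varieties using these same libraries, so their directions are not independent evidence. Of the 383 tested, 73 were higher, 61 lower and 249 not called, with a median of -0.05 and 35.0% called, close to the background of 33.3%. All 5 called members of the PR-10-like group were higher among 7 tested, as were all 6 called among 10 cytochromes P450. Cell wall genes were called lower in 6 and higher in 3 of 23, and lipid enzymes lower in 5 and higher in 0 of 20. For the lipid group the count of higher members became 4 with library totals, beside 3 lower, and 2 with quantile normalisation.

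**Figure D2:**
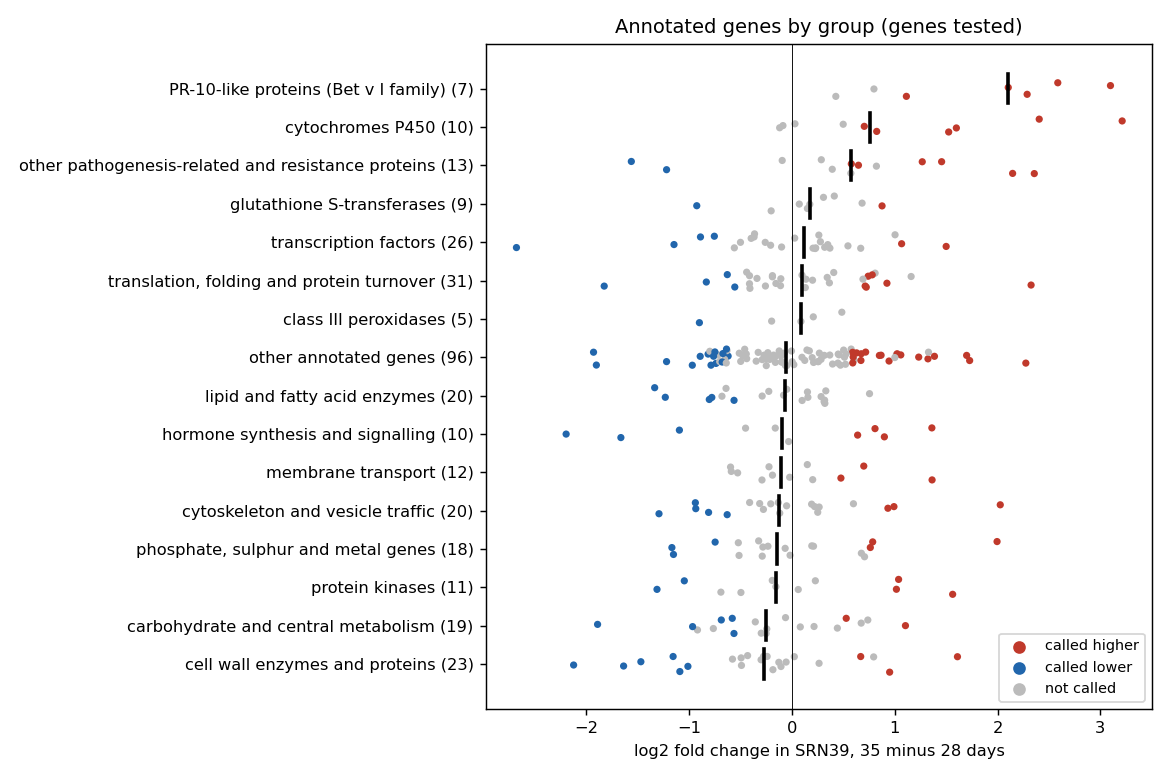
Log2 fold change between 28 and 35 days in SRN39 for annotated genes by group, with the number tested in brackets, points coloured by call and bars at group medians. PR-10-like genes have the highest median, 2.10, and cell wall genes the lowest, -0.27. The groups were formed after values were seen, so this order depends on how they were drawn.

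Strigolactone-related genes did not move as a block. NSP1 on chromosome 1 (Sobic.001G341400) had 19.2, 25.0, 22.9 and 18.6 CPM at 28 days and 49.8, 68.8, 41.9 and 59.6 CPM at 35 days. Every older library lay above every younger one, and the log2 fold change was 1.36 (SE 0.27, edgeR adjusted p = 0.0013). The second NSP1 homologue, Sobic.002G372100, also separated by age, from 31.2 to 37.6 CPM against 38.7 to 53.5 CPM, but its log2 difference of 0.49 was not called (edgeR adjusted p = 0.13). Sobic.002G372100 was called with library totals (0.77, edgeR adjusted p = 0.029), with the 8 SRN39 libraries alone (0.013) and without SQR 35-day replicate 1 (0.042). CCD8 (Sobic.003G293600) had 12.3, 13.1, 29.1 and 6.77 CPM and then 20.1, 28.4, 17.9 and 35.9 CPM, with overlapping ages and no call (0.74, edgeR adjusted p = 0.12). Its highest younger value belonged to replicate 3, the library that stood apart, and without that library CCD8 was called higher (1.26, edgeR adjusted p = 0.0073). CCD7 (Sobic.006G170300) stayed below 3 CPM in every SRN39 library, with a difference of 0.25 whose sign depended on the processing. LATERAL BRANCHING OXIDOREDUCTASE (LBO, Sobic.003G418000), which oxidises a late strigolactone intermediate in Arabidopsis, fell from 29.3, 26.5, 24.3 and 29.1 CPM to 21.2, 16, 14.2 and 9.36 CPM. Its ages did not overlap, and the log2 fold change was -0.85 (SE 0.20, edgeR adjusted p = 0.0051). The strigolactone signalling homologue SMXL3 (Sobic.008G042800) had 36 counts in all at 28 days and 29 at 35 days and was not tested.

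Auxin-related genes changed in both directions. The GH3 gene Sobic.001G331200 had 116, 107, 104 and 117 CPM at 28 days and 30.2, 23.8, 20.3 and 23.0 CPM at 35 days. The ages were far apart and replicates close, and its log2 fold change of -2.19 (SE 0.22, edgeR adjusted p = 1.3e-05) was the largest fall among the annotated genes with a mean of at least 10 CPM and no overlap. An auxin-repressed protein gene, Sobic.001G377000, fell from 484, 371, 330 and 364 CPM to 141, 106, 84.6 and 158 CPM, by 1.66 on the log2 scale (SE 0.29, edgeR adjusted p = 0.00063). The SAUR50 homologue Sobic.007G191400 rose from 9.76, 9.74, 10.9 and 7.94 CPM to 17.3, 23.8, 22.3 and 20.7 CPM, with a log2 fold change of 1.14 (SE 0.18, edgeR adjusted p = 0.00036). The SAUR72-like gene Sobic.004G156300 rose by 0.82 (SE 0.23, edgeR adjusted p = 0.012), from 90.9 to 145 CPM up to 166 to 265 CPM. The SAUR72 homologue Sobic.002G259100 was called higher at 0.63 (edgeR adjusted p = 0.023), but the call was lost without 28-day replicate 3 (0.066), 28-day replicate 4 (0.068) or 35-day replicate 2 (0.067). Chosen after their values were seen, the Aux/IAA repressor IAA3 (Sobic.001G056100) rose by 0.90 and an auxin receptor-like F-box gene (Sobic.001G477400) fell by 1.09.

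Beyond auxin, both HAI3 homologues were low but separated by age. Sobic.002G172000 had 1.47, 2.15, 3.34 and 1.53 CPM in younger roots and 6.49, 8.19, 6.27 and 11.0 CPM in older ones, a log2 fold change of 1.91 (SE 0.33, edgeR adjusted p = 0.00056). Sobic.003G354000 had 2.31, 3.07, 5.01 and 2.53 CPM and then 9.43, 9.86, 7.22 and 8.89 CPM, a log2 fold change of 1.45 (SE 0.26, edgeR adjusted p = 0.00084). In both genes 28-day replicate 3 was the highest younger library. Allene oxide synthase (Sobic.001G449700), an early enzyme of jasmonate synthesis, rose from a mean of 44.8 to 73.0 CPM (0.70, edgeR adjusted p = 0.0073). Of 3 genes tested in the jasmonate list, 1 was called, beside 33.3% of all genes tested, and the list median was -0.03. A gene described as an ACC oxidase, the type of enzyme that releases ethylene (Sobic.001G006201), rose from 12.6 to 22 CPM (0.81, edgeR adjusted p = 0.0056). An aldehyde oxidase (Sobic.001G062300), from the family that makes abscisic acid in Arabidopsis, had means of 296 and 462 CPM with overlapping libraries (0.64, edgeR adjusted p = 0.023). For Sobic.001G062300 the call was lost without 28-day replicate 2 (0.064), 3 (0.067) or 4 (0.052) or 35-day replicate 1 (0.056) or 3 (0.052), the values being edgeR adjusted p.

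PR-10 proteins are small ligand-binding proteins that accumulate in many plants under pathogen attack, and their fold is shared with the abscisic acid receptors that are the nearest Arabidopsis matches of these genes. The 7 genes are neighbours on chromosome 1, and STAR's gene counting leaves out reads that map to more than 1 place, so the level of each such close copy is uncertain. Sobic.001G401300 was the most abundant in older roots, with 233, 309, 460 and 258 CPM at 28 days and 1747, 1659, 1449 and 1294 CPM at 35 days (2.29, SE 0.36, edgeR adjusted p = 0.0003). Sobic.001G401000 had 664, 727, 576 and 595 CPM and then 1631, 1171, 1594 and 1149 CPM (1.11, SE 0.26, edgeR adjusted p = 0.0040). The ages did not overlap in either gene. Sobic.001G401200 rose from 110, 166, 228 and 109 CPM to 838, 694, 706 and 401 CPM (2.10, SE 0.37, edgeR adjusted p = 0.00066). Sobic.001G400900 rose from 10.5, 15.5, 18.0 and 11.2 CPM to 93.2, 85.7, 107 and 45.0 CPM (2.59, SE 0.26, edgeR adjusted p = 1.3e-05). The least abundant member, Sobic.001G401100, rose from 1.26, 3.69, 4.61 and 1.80 CPM to 20.1, 25.8, 38.5 and 13.1 CPM (3.10, SE 0.53, edgeR adjusted p = 0.00054). In all 7 genes 35-day replicate 4 was the lowest older library. The remaining genes, Sobic.001G400700 and Sobic.001G400800, overlapped between ages and were not called, with differences of 0.80 (edgeR adjusted p = 0.06) and 0.43 (edgeR adjusted p = 0.40). Sobic.001G400700 lay near the threshold and was called higher with quantile normalisation (limma adjusted p = 0.024), DESeq2 (adjusted p = 0.043), library totals (edgeR adjusted p = 0.014), the 8 SRN39 libraries alone (0.020), and without SQR 28-day replicate 1 (0.028) or 3 (0.046), SRN39 28-day replicate 3 (0.033) or 35-day replicate 4 (0.032).

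**Figure D3:**
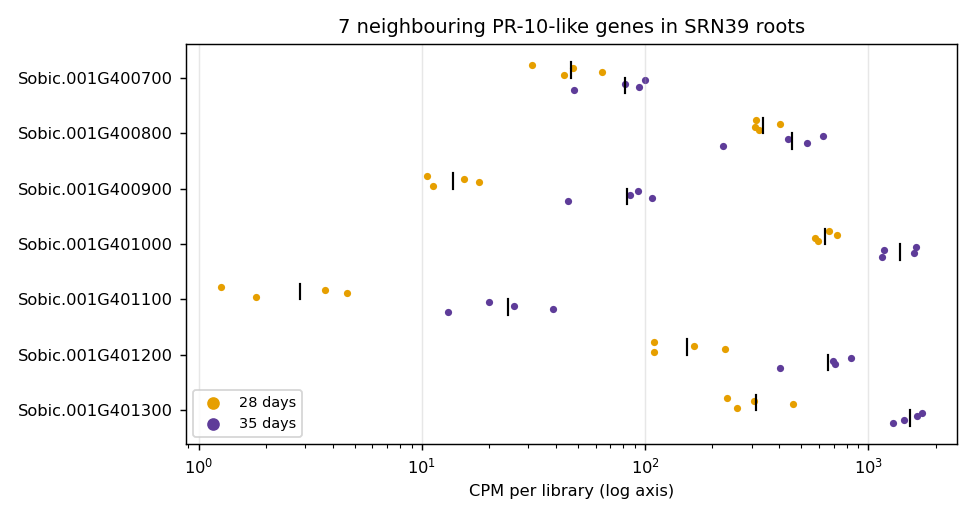
CPM on a log axis for 7 neighbouring PR-10-like genes in the 4 younger (orange) and 4 older (purple) SRN39 libraries, with vertical marks at the means. In 5 genes all older libraries lie to the right of all younger ones, and in Sobic.001G400700 and Sobic.001G400800 they overlap.

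Among 13 other defence-related genes, 6 were higher and 2 lower (61.5% called, against 33.3% of all genes tested). With 1 library left out in turn, 4 to 7 were higher and 1 to 2 lower. This group was formed after values were seen. A plant basic secretory protein gene, Sobic.001G209300, fell from 82.8, 85.7, 75.0 and 86.4 CPM to 41.4, 31.1, 38.3 and 31.2 CPM, by 1.22 (SE 0.17, edgeR adjusted p = 0.00013). Its neighbour Sobic.001G209200 was called lower at -1.56 (edgeR adjusted p = 0.029), a call that was lost without 28-day replicate 3, when the difference was -1.02 (edgeR adjusted p = 0.12), and also without 35-day replicate 1 (0.062), 3 (0.076) or 4 (0.067), with library totals (0.070) and with quantile normalisation (0.058). Chosen after their values were seen, a cystatin gene (Sobic.001G324700, a protease inhibitor) rose by 2.36 and an NB-ARC resistance gene (Sobic.002G013400) by 2.15, both from under 1 CPM. Glutathione S-transferases, which conjugate toxic compounds, included 1 higher and 1 lower of 9 (22.2% called, below the 33.3% of all genes tested). The GSTU17-type gene Sobic.001G317000 rose from a mean of 84.1 to 154 CPM (0.88, edgeR adjusted p = 0.012), and Sobic.001G317800, which has the same nearest Arabidopsis gene, fell from 14.6 to 7.67 CPM (-0.92, edgeR adjusted p = 0.0068).

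Cytochromes P450 are oxidases of hormone and specialised metabolism. CYP93D1 (Sobic.002G000400) had 5.88, 5.43, 5.99 and 3.88 CPM at 28 days and 52.1, 49.9, 64.0 and 30.2 CPM at 35 days, a log2 fold change of 3.21 (SE 0.33, edgeR adjusted p = 1.3e-05). CYP71B7 (Sobic.001G176600) rose from 24.9, 26.8, 35.5 and 40.5 CPM to 204, 150, 149 and 174 CPM (2.41, SE 0.25, edgeR adjusted p = 1.7e-05). Neither gene overlapped between ages. CYP71B34 (Sobic.001G176300) rose from a mean of 6.72 to 20.4 CPM (1.6, edgeR adjusted p = 0.00073). Ferulate 5-hydroxylase (FAH1, Sobic.001G196300), which leads to syringyl lignin in Arabidopsis, rose from 11.7 to 33.6 CPM (1.52, edgeR adjusted p = 0.00023).

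Of the 9 cell wall genes called among 23 tested (39.1%, against 33.3% of all genes), 6 were lower and 3 higher, and with library totals 5 were lower and 4 higher. The SKU5-like gene Sobic.001G199400, whose Arabidopsis match affects directional root growth, fell from a mean of 16.9 to 3.89 CPM (-2.12, edgeR adjusted p = 0.00069). A dirigent gene, Sobic.001G507100, from a family that guides coupling of lignan precursors, fell from 220, 224, 134 and 173 CPM to 88.4, 61.8, 71.2 and 50.5 CPM (-1.47, SE 0.25, edgeR adjusted p = 0.00057). The ages of both genes were separate. A glycine-rich wall protein gene (Sobic.001G232200) fell by 1.63 (edgeR adjusted p = 0.0011), and XTH9 (Sobic.001G179400), a xyloglucan-remodelling enzyme, by 1.15 at about 1 to 2 CPM (edgeR adjusted p = 0.019). Expansin B2 (Sobic.001G542100), a wall-loosening protein, fell from 25.2 to 12.5 CPM (-1.01, edgeR adjusted p = 0.0081), a call that was lost with library totals (0.060). Uclacyanin 1 (Sobic.002G003800), a copper protein, rose from 13.4 to 40.8 CPM (1.61, edgeR adjusted p = 0.0053).

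Nutrient genes gave 3 rises and 3 falls among 18 (33.3% called, the same as the 33.3% of all genes tested). LSU4 (Sobic.001G198000), whose family responds to low sulphur in Arabidopsis, rose from 27.5, 28.1, 30.7 and 32.7 CPM to 106, 123, 137 and 109 CPM. Replicates were close at each age, and the log2 fold change was 2.0 (SE 0.29, edgeR adjusted p = 0.00021). A heavy metal-associated protein gene (Sobic.001G528300) fell from a mean of 127 to 56.5 CPM (-1.17, edgeR adjusted p = 0.00054). A divalent ion symporter gene (Sobic.001G539200) had means of 198 and 341 CPM with overlapping ages (0.79, edgeR adjusted p = 0.017), a call that was lost without 35-day replicate 4 (0.065). In the list of phosphate starvation and transport genes, 1 of 5 was called, higher, beside 33.3% called among all genes tested. Chosen after its values were seen, the sulphate transporter gene SULTR1;3 (Sobic.001G153100) fell from 47.0 to 21.1 CPM.

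Further named genes fell from higher levels. Cyclin P4;1 (Sobic.001G295000), of a cyclin type that binds cell cycle kinases, fell from 626, 578, 353 and 467 CPM to 152, 128, 162 and 100.4 CPM (-1.90, SE 0.24, edgeR adjusted p = 6.4e-05). The lowest younger library, replicate 3, still lay above every older one. Beta-amylase 1 (Sobic.001G508800), a starch-degrading enzyme, fell from 19.0, 31.6, 67.1 and 31.3 CPM to 7.71, 16.9, 5.69 and 9.96 CPM (-1.89, SE 0.39, edgeR adjusted p = 0.0018). A kinase gene with a PB1 domain (Sobic.001G002000) fell from a mean of 403 to 163 CPM (-1.31, edgeR adjusted p = 0.00041). Among lipid genes, CCT2 (Sobic.001G282900), which acts in phosphatidylcholine synthesis, fell from 323 to 185 CPM (-0.80, edgeR adjusted p = 0.0046), and Sobic.001G540300, a subunit for GPI anchor synthesis, from 29.5 to 11.8 CPM (-1.33, edgeR adjusted p = 0.0015). A lipid-transfer family gene (Sobic.001G304300) was called lower at -1.23 (edgeR adjusted p = 0.015), which was lost without 28-day replicate 2 (0.054).

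Several of the rises began from low levels. The serine carboxypeptidase-like gene scpl3 (Sobic.001G280200) rose from a mean of 3.37 to 16.9 CPM (2.33, edgeR adjusted p = 7.7e-05). A methionine sulfoxide reductase gene (Sobic.001G513300), which repairs oxidised methionine, rose from 3.58 to 17.4 CPM (2.28, edgeR adjusted p = 1.1e-05). Actin depolymerizing factor 4 (ADF4, Sobic.001G417600) rose from 2.72 to 11.1 CPM (2.03, edgeR adjusted p = 3e-05). None of these genes overlapped between ages. The vesicle traffic GTPase ARFB1B (Sobic.001G281900) instead fell from 152 to 79.6 CPM (-0.94, edgeR adjusted p = 0.00063), and a DnaJ chaperone gene (Sobic.001G400300) rose from 47.2 to 81.2 CPM (0.78, edgeR adjusted p = 0.0089). The abundant alpha/beta hydrolase Sobic.001G330000 (1410 to 840 CPM, edgeR adjusted p = 0.015) and DC1-domain gene Sobic.001G342600 (819 to 419 CPM, edgeR adjusted p = 0.025) were called lower, and both calls were lost with library totals and with quantile normalisation. Leaving out 28-day replicate 1 also ended both calls (edgeR adjusted p = 0.056 for Sobic.001G330000 and 0.059 for Sobic.001G342600), and Sobic.001G342600 lost its call without 35-day replicate 2 (0.059), 3 (0.073) or 4 (0.063).

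**Figure D4:**
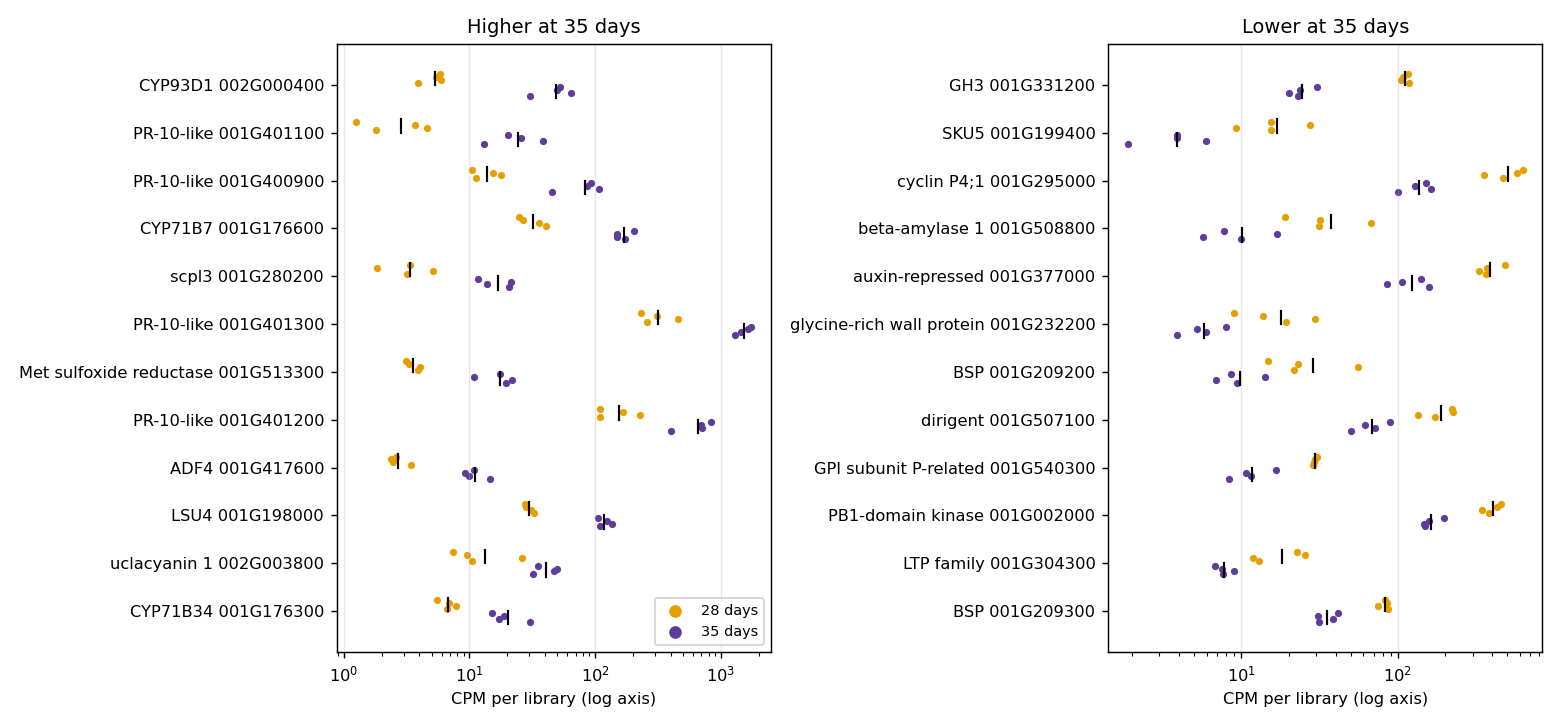
CPM on a log axis for the 12 annotated genes with the largest rises (left) and the 12 with the largest falls (right) among called genes with a mean of at least 10 CPM at the higher age and no overlap between ages, with 28-day libraries in orange, 35-day libraries in purple and vertical marks at the means. CYP93D1 rises from a mean of 5.29 to 49 CPM and GH3 falls from 111 to 24.3 CPM.

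Transcription factors were called lower in 4 and higher in 2 of 26 (23.1% called, below the 33.3% of all genes tested). Chosen after their values were seen, a bHLH gene (Sobic.001G278300) fell by 2.68, SHORT-ROOT (SHR, Sobic.001G327900), which patterns the root ground tissue in Arabidopsis, fell by 0.89, and the stress-related zinc finger gene ZAT10 (Sobic.001G079500) rose by 1.07. The bHLH gene did not meet the limits of call, level and separation set for the largest falls. Of the genes described as floral initiation factors, Sobic.010G180200 did not differ detectably at about 1 CPM (-0.04, edgeR adjusted p = 0.96), and Sobic.008G168400 had 4 counts at 28 days and 0 at 35 days and was not tested.

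Larger changes were found in genes without a description. Sobic.002G076200 had 0.63, 0.102, 1.08 and 0.271 CPM in younger roots and 27, 3.89, 22.3 and 31.3 CPM in older ones (5.32, SE 0.61, edgeR adjusted p = 3.6e-05), and 5.95 without 28-day replicate 3. Sobic.003G252800 fell from 14.8, 4.92, 5.59 and 23.4 CPM to 1.72, 1.11, 1.53 and 0.471 CPM (-3.35, SE 0.53, edgeR adjusted p = 0.00032). A single library shaped the value of Sobic.004G014400, which had 49.7, 45.5, 25.2 and 42.2 CPM and then 0.913, 13.4, 1.09 and 0.741 CPM (-3.33, edgeR adjusted p = 0.0019) and fell by 5.46 without 35-day replicate 2. Likewise, Sobic.008G181801 had 51.2 CPM in 35-day replicate 4 and 0.556 to 1.90 CPM in the other older libraries, and without that library it did not pass the filter.

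The same interval was then set against SQR, with the test of the difference between the 2 age effects in the same fit. In SQR, which has 1 library fewer, 485 genes (2.82%) were called for age. The SQR 35-day replicate 2 stood apart, with correlations of 0.916 and 0.941 (log2 CPM, across genes) to the other 35-day libraries, which correlated at 0.959, and 8.37% of its counts in its 10 most abundant genes against 14.6% and 15%. The SQR count ranged from 47 without SQR 28-day replicate 4 to 2034 without SQR 35-day replicate 3 and was 57 without the 35-day replicate 2, so its size is poorly fixed, and DESeq2 called 1348. In the same fit the age effect differed between varieties for 1414 genes (8.23%). Of the 5720 genes called in SRN39, 1154 (20.2%) had a different age effect, beside 8.23% of all genes tested. The same SRN39 libraries enter both tests, so a higher share is built in. In SQR, 119 of the 5720 were called in the same direction and 37 in the opposite one, where 2.82% of all genes tested were called. The median SQR change was 0.28 over genes called higher in SRN39 and -0.22 over genes called lower. The count of 1414 became 875 without SQR 28-day replicate 4, 909 without SRN39 28-day replicate 4, 910 without SRN39 35-day replicate 3 and 934 without SRN39 35-day replicate 4. It rose to 2012 without SQR 35-day replicate 1, to 1655 without SQR 35-day replicate 2 and to 2010 with DESeq2.

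GH3 (Sobic.001G331200), which fell by 2.19 in SRN39, changed by 0.30 in SQR, a difference of -2.49 (edgeR adjusted p = 0.00087). The basic secretory protein gene Sobic.001G209300 was called in opposite directions, with -1.22 in SRN39 and 0.93 in SQR (difference -2.15, edgeR adjusted p = 0.00063). The HAI3 homologue Sobic.002G172000 changed by -1.04 in SQR without a call (difference 2.95, edgeR adjusted p = 0.0034). The PR-10-like genes were not uniform. Sobic.001G400900 and Sobic.001G401000 differed between varieties by 2.70 (edgeR adjusted p = 0.0069) and 1.84 (edgeR adjusted p = 0.010). However, the SQR libraries had only 0.502 to 1.12 CPM of Sobic.001G400900 and 10.3 to 34.6 CPM of Sobic.001G401000. For Sobic.001G401200, Sobic.001G401300 and Sobic.001G401100 no difference was detected (0.70, 1.10 and 1.64, edgeR adjusted p = 0.44, 0.19 and 0.17). Their SQR changes were 1.4, 1.19 and 1.46. For NSP1 (Sobic.001G341400) the difference was 1.39 (edgeR adjusted p = 0.043), and its adjusted p rose above 0.05 in 11 of 15 fits that left out 1 library, up to 0.094 without SQR 28-day replicate 2, and with library totals (0.051).

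**Figure D5:**
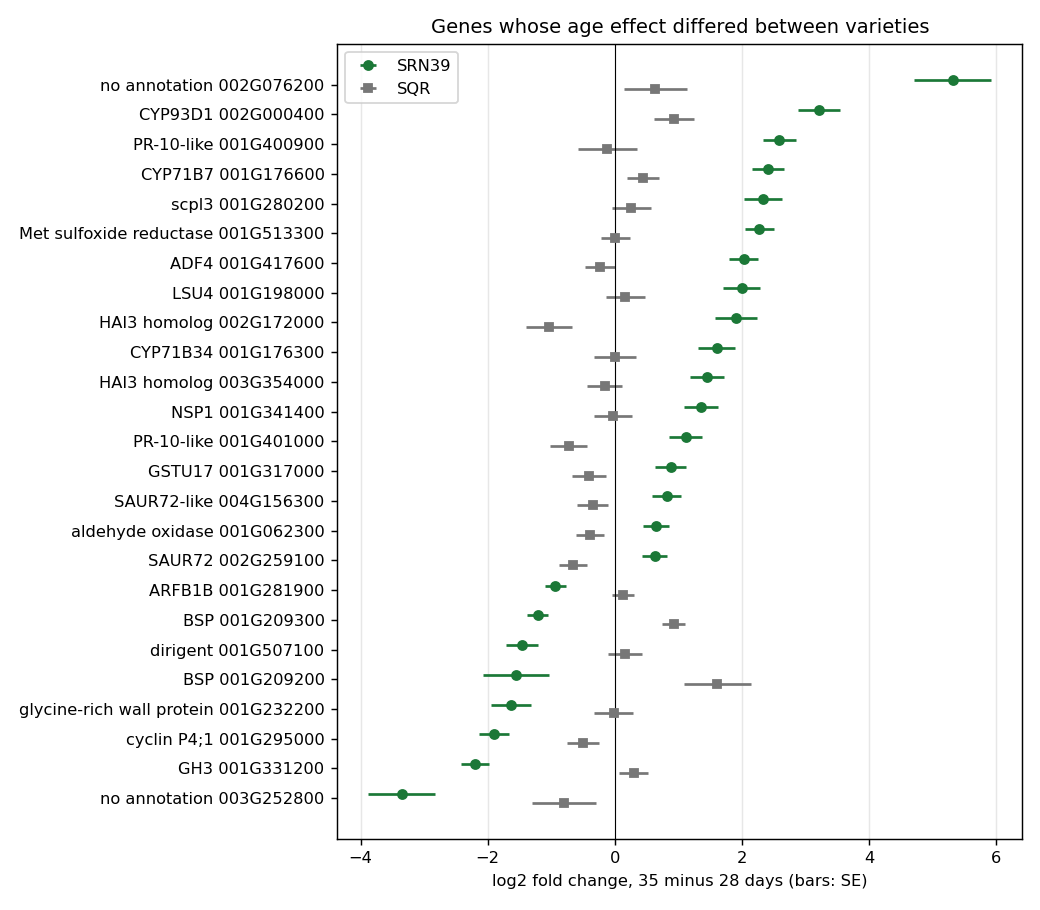
Log2 fold change between 28 and 35 days with its standard error (bars) in SRN39 (green circles) and SQR (grey squares) for the 25 named genes whose age effect differed between varieties. GH3 lies at -2.19 in SRN39 and 0.30 in SQR, and CYP93D1 at 3.21 and 0.93.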

How the data were processed

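Roots were profiled with QuantSeq 3′ mRNA-Seq, which reads the transcript end. The authors pooled technical replicates, trimmed reads, aligned them with STAR to the BTx623 genome and deposited unnormalised counts per gene. Genes were counted by STAR's own gene counting, which takes uniquely mapped reads. No source used here gives the STAR version, the annotation version or the strand setting. In the deposited count table, 1 column matched no sample and was not used. By its header it is another SQR 35-day library, so the SQR 35-day group held 3 libraries here.

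Counts were tested with edgeR 4.0.16 (R 4.3.3) by quasi-likelihood with TMM scaling on all 15 libraries in 4 groups, two-sided, with Benjamini-Hochberg adjustment at 0.05 over the 17187 genes kept. CPM values are TMM-scaled. Each standard error (SE) is the size of the log2 fold change divided by the square root of its quasi-likelihood F statistic. The labels do not say whether a library is 1 plant or several, or whether replicates came from separate growth runs, so p-values measure only the spread between these libraries. Alternatives used limma 3.58.1, DESeq2 1.42.0, other scalings and filters, thinning, a stricter threshold and leaving out each library. In simulated data of 17187 genes, 100 genes were changed by 1 and 100 by 2 on the log2 scale. The fit called 47% and 97% of them in the right direction, with 7 false calls. A change of 1 was thus often missed in the simulation. Far fewer genes were changed there than the 5720 called in the data. The adjusted threshold depends on that share, so these rates do not carry over to the data. The lack of a call still does not show that a gene was unchanged.

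No gene identifier (0) matched the RefSeq table, so descriptions come from best-match lines for 413 genes. Members and lists were chosen with earlier results of these data known, and the functional groups were formed after values were seen. Named genes are those named by the study; the 12 largest annotated changes per direction with at least 10 CPM and no overlap; up to 4 called members per list with at least 5 CPM; the 10 largest differences in mean CPM per direction; the PR-10-like genes; and 2 undescribed genes per direction.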

Additional observations from a re-analysis of the deposited data

Results flagged for a closer look

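Of 124 sets of 4 libraries, 4 had a library far from the others by Dixon's ratio at its 95% limit, and chance gives about 1 in 20. Sobic.001G400800 had a ratio of 0.867 at 28 days, with 404 CPM in replicate 2 against 311 to 323 in the others. Sobic.008G181801 had 0.898 at 28 days (replicate 1 at 0.21 CPM) and 0.974 at 35 days (replicate 4 at 51.2 CPM). Sobic.004G014400 had 0.972 at 35 days, with 13.4 CPM in replicate 2 against 0.741 to 1.09 CPM.

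For 25 named genes the age effect in SRN39 minus that in SQR passed the interaction test in edgeR, beside 8.23% of all genes tested. Named genes were chosen in part for large changes in SRN39, so the shares are not comparable. At an adjusted p under 0.05, 16 of the 25 kept the call under every alternative run, and 9 lost it under at least 1: Sobic.001G062300, Sobic.001G176300, Sobic.001G209200, Sobic.001G232200, Sobic.001G317000, Sobic.001G341400, Sobic.003G252800, Sobic.003G354000 and Sobic.004G156300. The log2 difference was positive for Sobic.002G076200 (4.68), Sobic.002G172000 (2.95), Sobic.001G400900 (2.70), Sobic.002G000400 (2.28), Sobic.001G513300 (2.27), Sobic.001G417600 (2.26), Sobic.001G280200 (2.07), Sobic.001G176600 (1.96), Sobic.001G401000 (1.84), Sobic.001G198000 (1.83), Sobic.003G354000 (1.61), Sobic.001G176300 (1.6), Sobic.001G341400 (1.39), Sobic.001G317000 (1.29), Sobic.002G259100 (1.29), Sobic.004G156300 (1.17) and Sobic.001G062300 (1.03). It was negative for Sobic.001G209200 (-3.17), Sobic.003G252800 (-2.55), Sobic.001G331200 (-2.49), Sobic.001G209300 (-2.15), Sobic.001G507100 (-1.63), Sobic.001G232200 (-1.61), Sobic.001G295000 (-1.39) and Sobic.001G281900 (-1.06).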

How the results depend on the processing

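Of the 50 named genes called for age in SRN39, 39 kept direction and call under every alternative run, and 7 lost the call without 1 library. Sobic.008G181801 is not among these 7, since it did not pass the filter without 35-day replicate 4 and was not fitted there. At an adjusted p under 0.01 the calls were 2956 (1393 higher, 1563 lower), with 333 for the difference between varieties and 48 higher and 38 lower among annotated genes. With library totals in place of TMM, 4710 genes were higher and 1587 lower, and 112 and 37 among annotated genes. For age in SQR, alternatives chosen after seeing the data gave 264 calls with quantile normalisation, 1348 with DESeq2, 12 at an adjusted p under 0.01, and 47 to 2034 without single libraries, against 485. In SRN39, DESeq2 called 6146 genes, limma-voom with quantile normalisation 5992, and the 8 SRN39 libraries alone 7221. Leaving out each library in turn gave 4147 to 6683 calls (2089 to 3379 higher, 2055 to 3304 lower), 875 to 2012 differences between varieties, 59 to 83 higher and 47 to 71 lower annotated genes, and an age share of 54.9% to 63.1%. Replicate numbers did not pair the libraries: correlations of deviations between same-numbered libraries were -0.18 to 0.02 and 0 of 4 matched their own number best. With the number as a replicate block, 5071 genes were called for age in SRN39, 60 in SQR and 739 for the difference between varieties. Uncalled CCD7 (Sobic.006G170300) changed sign when counts were thinned (-0.070), without 28-day replicate 4 (-0.093) and without 35-day replicate 4 (-0.072), within a range of -0.093 to 0.48 over left-out libraries, and Sobic.010G180200 with library totals (0.26), the replicate block (0.033), without 28-day replicate 1 (0.22) and without 35-day replicate 1 (0.11), within -0.20 to 0.22. The cause was not tested. Precision was lowest for genes under 2 CPM (median SE 0.44, 19.7% called), against a median SE of 0.21 and 47.3% called over 200 CPM.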
